A study of Mus musculus with 36 samples.

Results

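The genes described here were 7 receptors and factors of blood progenitor cells, Kit, Cd34, Flt3, Epor, Csf2rb, Gata2 and Meis1, measured in whole blood of irradiated mice. They were taken by gene name from the non-control probes of an Agilent mouse array, which gave 11 of 39429 probes and 7 of 31093 gene names. Blood RNA of male C57BL/6J mice, 8 to 10 weeks of age when irradiated, was hybridised to 36 single-colour arrays, 1 mouse each, with 6 arrays in each of 6 groups. All blood was collected at day 7 by cardiac puncture, and globin transcripts were reduced in the RNA. The groups were sham-irradiated controls, 3 Gy of x-rays, 3 Gy mixed fields of x-rays with a neutron share of 5%, 15% or 25% (0.15, 0.45 or 0.75 Gy of neutrons), and 0.75 Gy of neutrons alone. The neutron source also delivers some photons, so the group titled 100% neutron was not free of them. Strain, sex and day were the same in all groups. By the labels, the 25% field and neutrons alone carried equal neutron doses and differed in the x-rays.

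Blood progenitors live mainly in the bone marrow, and a small number circulate. Kit is the receptor for stem cell factor and Flt3 the receptor for Flt3 ligand, both tyrosine kinases that carry survival and growth signals in early progenitors. Epor is the receptor for erythropoietin, which keeps red cell precursors alive through JAK2 and STAT5, and Csf2rb is the shared beta chain of the receptors for GM-CSF, interleukin 3 and interleukin 5. CD34 is a surface sialomucin used to mark progenitors, and it is also found on endothelium and mast cells. GATA2 is a zinc finger factor of stem cells, megakaryocytes, mast cells and basophils, and MEIS1 is a homeobox factor of stem cells and megakaryocytes.

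The calls for Cd34 differed between its probes, and Flt3 was measured at 1 of its 3, so the probes of these 2 genes are shown first. Each line holds 30 of a probe's 60 bases, 5′ to 3′ as the array lists them, and capitals mark AATAAA, the usual hexamer of a polyadenylation signal.
Cd34 A_51_P204740, bases 20 to 49: gtgtattctcttctgAATAAAcgtgatgag
Cd34 A_55_P2009225, bases 1 to 30: taaacaagatatcgggagccaccagagcta
Flt3 A_66_P116412, bases 1 to 30: agatgctgtctgccattactccaaagtgac
Flt3 A_55_P2055242, bases 1 to 30: cgtggatcttctctcaagcctcatttcctt
Flt3 A_66_P126155, bases 1 to 30: tttctggggccacacagcgagaccctgtct
In mm9, the build of the array annotation, the first Cd34 probe lay at chr1:196787392-196787451 and the second at chr1:196785280-196785339, both on the plus strand. They start at bases 2370 and 963 of the same transcript, NM_133654. On its listed strand AATAAA was in 1 of the 11 progenitor probes and in 12.6% of all 39429 probes. The Flt3 probes lay at chr5:148142576-148142635, chr5:148178496-148178555 and chr5:148174133-148174192 on the minus strand. The first pair read NM_010229 and the last a separate cDNA, AK045865.

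Not every probe could be measured. Feature Extraction marks a spot as well above background when it clears the local background by a margin, and the probes of Epor, Csf2rb and Gata2 and the first Flt3 probe met this on all 36 arrays. The other 2 Flt3 probes did so on 0 and 1 of 36 arrays, were not well above background in any exposed group, and are given no fold change. Kit was dim, with 3 of 6 control arrays and 2 of 6 neutron arrays well above background and 5 of 6 in each mixed field. Meis1 was well above background on 4 to 6 arrays of each group. The first Cd34 probe was so on all arrays except 2 neutron arrays, and the second on 1 of 6 control arrays, all 6 x-ray arrays and 3 to 5 of 6 arrays in each other group. All 7 genes passed the filters through at least 1 probe and were among the 15083 genes tested. Levels below are log2 intensities over the array's median, on the brightest probe unless another is named. They can be compared between groups but not between probes.

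Differentially expressed (called) genes were those with p below 0.001 and an adjusted p below 0.05 in limma between 2 groups of 6. Against controls none of the 7 genes was differentially expressed after x-rays or in the 5% field, 2 were in the 15% field (Kit and Epor), 2 in the 25% field (Cd34 and Epor) and 1 after neutrons alone (Flt3), each of them upregulated. Among all genes tested, 29.8%, 23.1%, 29.1%, 24.8% and 36.6% passed after x-rays, the 5%, 15% and 25% fields and neutrons alone, so these counts are near or below the background of the arrays. Upward calls, in the same order, numbered 1948, 1364, 1896, 1641 and 2432 of the 15083 genes. At an unadjusted p below 0.05 the limma counts after x-rays and in the 5% field were 3 and 3 of the 7. The share of all genes at this looser threshold is not given here and is at least the 29.8% and 23.1% called. These counts are therefore not read as a result about the 7 genes. The median change of the 7 genes was 0.0025, 0.11, 0.36, 0.00077 and 0.14 on the log2 scale, beside medians of -0.11, -0.08, -0.02, -0.12 and -0.12 over all genes. In whole blood, fewer cells of a type and less RNA per cell cannot be told apart.

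**Figure D1:**
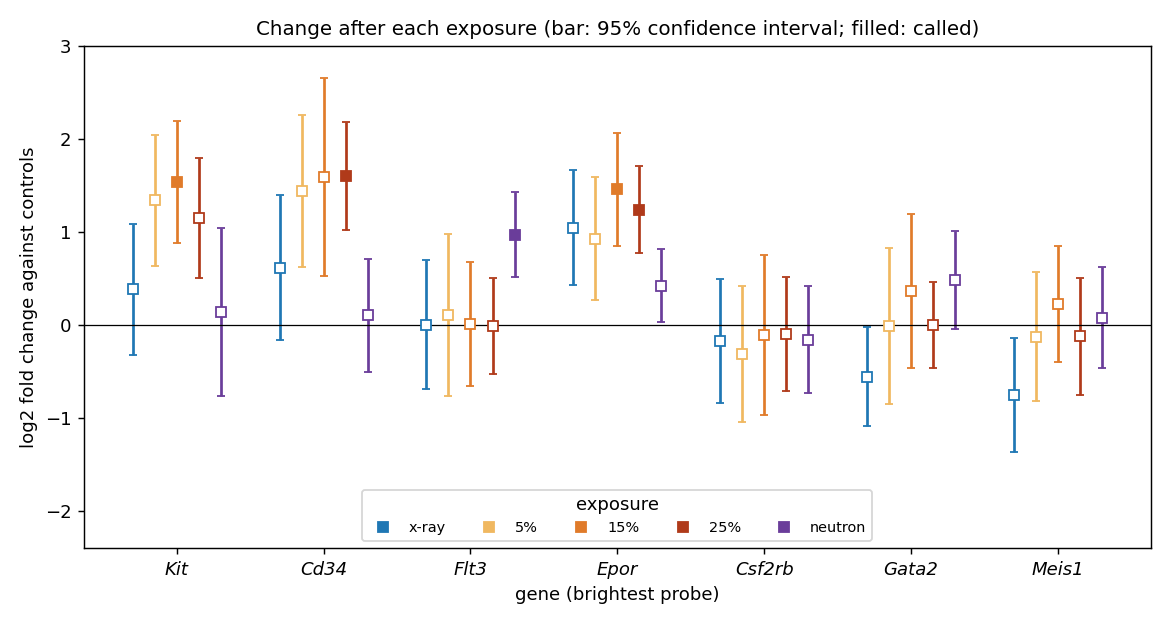
Log2 fold change of each gene (x axis, brightest probe) against controls for the 5 exposures, with 95% confidence intervals from limma (6 arrays a group) and filled squares where the gene was called. Kit, Cd34 and Epor sit above 0 in the mixed fields, and the Epor intervals also leave out 0 after x-rays and after neutrons alone. Flt3 sits above 0 after neutrons alone, and the Csf2rb estimates lie within 0.32 of 0 with wider intervals.

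Kit transcripts rose in the 15% field. The control arrays ran from -0.85 through a median of -0.36 to 0.15, and the 15% arrays from 0.37 through 1.19 to 2.22, with no overlap. The change was 1.54 on the log2 scale (SE 0.31, adjusted p = 0.00094), a 2.9-fold increase, and groups that did not overlap upward made up 10.9% of all genes in this comparison. With 3 of 6 control arrays well above background, the control level of Kit was poorly measured and its folds are uncertain. The 5% arrays (0.03, median 1.01, 1.85) and the 25% arrays (-0.28, median 0.97, 1.53) also lay mostly above the controls, with 5 of 6 arrays of each above the highest control. Their changes, 1.34 (SE 0.33, adjusted p = 0.00464) and 1.15 (SE 0.30, adjusted p = 0.00665) in limma, missed the threshold on the unadjusted p. After x-rays Kit ran from -1.21 through 0.37 to 0.64 and after neutrons alone from -1.68 through -0.02 to 1.48. These 2 groups spread over the whole control range, with 4 of 6 x-ray arrays above every control and 1 below, and 1 of 6 neutron arrays above and 2 below. Their changes were 0.38 (95% interval -0.32 to 1.09) and 0.14 (-0.76 to 1.04). Ordered by mean, Kit ran from the 15% field through 5%, 25%, x-rays and neutrons to the controls, and each neighbouring pair in that order overlapped.

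The call in the 15% field was lost with the scan session or the slide as a block, where Kit changed by 1.22 (adjusted p = 0.40 and 0.42 in limma). Those fits rest on the only session shared by the 2 groups, which held 1 array of each, and the value within it was 1.22. Mast cells carry Kit on their surface, and genes of a mast cell and basophil list moved as well. Of its 8 tested genes 1, 4, 2, 3 and 1 were called upward after x-rays, 5%, 15%, 25% and neutrons, with median changes of 0.82, 1.64, 1.31, 1.39 and 0.93. Mcpt4, a mast cell chymase, changed by 3.62 (adjusted p = 0.00214) in the 5% field and by 3.28 (adjusted p = 0.00185) in the 25% field. Only 3 of 6 control arrays were well above background for Mcpt4, so its folds are uncertain. Cpa3, mast cell carboxypeptidase, rose by 1.77 (adjusted p = 0.00134) in the 5% field. In the 15% field, where Kit was called, neither was: Mcpt4 changed by 2.94 (adjusted p = 0.00727 in limma) and Cpa3 by 0.87 (adjusted p = 0.19 in limma). Prss34 of the same list was called upward in every exposure, from 1.72 after neutrons to 2.59 in the 15% field. The list's summed level, a sum led by Hdc, ran from 4.71 to 6.91 in controls. It ran from 6.34 to 7.12, 5.73 to 8.41 and 6.08 to 7.53 in the 3 mixed fields, 5.41 to 6.78 after x-rays and 5.78 to 7.65 after neutrons. Hdc and Fcer1a, the list's brightest genes in controls, were not called against controls. Fcer1a was lower in every exposure, with changes from -0.98 to -0.35. Ms4a2, the beta chain of the IgE receptor, was well above background on no array. The part of these cells in the Kit values was not tested.

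Flt3 was higher after neutrons alone. The controls ran from 1.49 through 2.36 to 2.85 and the neutron arrays from 2.89 through 3.33 to 3.67, with no overlap (15% of all genes in this comparison had no overlap upward). The change was 0.97 (SE 0.21, adjusted p = 0.00151), a 1.96-fold increase. In all the other exposures Flt3 sat near its control level, with medians of 2.46, 2.71, 2.37 and 2.43 after x-rays and in the 5%, 15% and 25% fields, and the largest change among them was 0.11 in the 5% field (95% interval -0.76 to 0.98). The 5% arrays were the widest, from 0.77 to 3.60.

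The neutron rise in Flt3 was close to the threshold. It was called in 5 of the 12 fits that left out 1 array, and dropped on the unadjusted p without control 1, 4 or 5 or without neutron 1, 3, 5 or 6, while the adjusted p in these fits was at most 0.00416. A random slide block gave 0.98 (adjusted p = 0.00368 in limma), where the unadjusted p again missed the threshold. Dendritic cells are known to carry Flt3, and monocytes arise from the same progenitors. After neutrons alone 2 of 7 monocyte genes (Csf1r and Cx3cr1) and 0 of 7 dendritic genes were called upward, beside 2432 of all 15083 genes. Ccr9 of the dendritic list was called downward there (-1.175, adjusted p = 0.000171 in limma). The summed dendritic level ran from 10.25 to 11.10 in controls and from 10.39 to 10.80 after neutrons. The part of these cells in the Flt3 values was not tested.

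Epor rose in the 15% and 25% fields. The controls ran from 2.38 through 2.96 to 3.28. The 15% arrays ran from 3.56 through 4.5 to 5.03 and the 25% arrays from 3.74 through 4.21 to 4.66, so that neither field overlapped the controls (10.9% and 12.2% of all genes had no overlap upward). The changes were 1.46 (SE 0.28, adjusted p = 0.000822) and 1.24 (SE 0.22, adjusted p = 0.000455), or 2.75-fold and 2.36-fold. After x-rays Epor ran from 3.22 through 4.09 to 4.58 and in the 5% field from 3.04 through 3.96 to 4.51. Most of these arrays were also above the controls, 5 of 6 and 4 of 6, and the changes of 1.05 (SE 0.29, adjusted p = 0.00727) and 0.93 (SE 0.31, adjusted p = 0.0252) in limma missed the unadjusted threshold. Neutrons alone gave the smallest change, 0.42 (95% interval 0.03 to 0.81, adjusted p = 0.06), with arrays from 2.90 through 3.41 to 3.66.

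In the 15% field the Epor call was lost with the slide or the session as a block, where the change was 0.59 (adjusted p = 0.65 and 0.70 in limma), again the value between the single arrays of the shared session. Within session 1, which held 5 control and 5 x-ray arrays, x-rays moved Epor by 0.93. The value was 0.24 on a slide shared by 2 arrays of each and 1.61 in session 4, with 1 array of each. Red cell genes rose in every exposure: 8, 9, 9, 7 and 10 of the 10 tested genes of the erythroid list were called upward, with median changes of 2.63, 1.91, 2.30, 1.89 and 1.61. Slc4a1, the anion exchanger of red cells, rose by 2.72 after x-rays, 2.31 in the 15% field and 1.63 after neutrons. Alas2, the first enzyme of heme synthesis in red cells, was called after neutrons alone (1.38, adjusted p = 3.95e-06). Epor and the median of this list both changed least after neutrons alone, though all 10 genes of the list were called there. The list's median change was largest after x-rays, where Epor was not called. Platelet genes were called upward in 0, 0, 2, 4 and 1 of 9 cases. The erythroid list's summed level ran from 14.38 to 14.80 in controls, from 14.50 to 16.20 in the 25% field and from 15.60 to 16.31 after neutrons. That of the platelet list ran from 12.65 to 13.55 in controls and from 13.94 to 15.07 in the 25% field. The part of either cell type in the Epor values was not tested.

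The windows before the Epor and Cd34 starts are shown because these were the 2 genes called in the 25% field. They are 250 bases upstream of the start in the RefSeq annotation of GRCm38.p6, and capitals mark a GATA hexamer, the letters GATA with A or T before them and A or G after them, searched on both strands.
Epor, chr9:21963577-21963826, minus strand: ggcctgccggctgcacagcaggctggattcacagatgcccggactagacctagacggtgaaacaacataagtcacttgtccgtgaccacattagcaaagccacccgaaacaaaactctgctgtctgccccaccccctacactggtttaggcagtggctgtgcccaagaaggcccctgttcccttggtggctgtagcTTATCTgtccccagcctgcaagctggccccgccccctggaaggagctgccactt
Cd34, chr1:194938571-194938820, plus strand: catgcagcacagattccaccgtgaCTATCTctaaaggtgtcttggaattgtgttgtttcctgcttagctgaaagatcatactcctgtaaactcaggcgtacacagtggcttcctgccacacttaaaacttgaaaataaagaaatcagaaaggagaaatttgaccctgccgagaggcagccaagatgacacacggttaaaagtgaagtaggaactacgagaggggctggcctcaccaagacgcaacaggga
The Epor match begins 54 bases before the start and the Cd34 match 226 bases before it, each on the reverse strand. Of 32851 such windows, 26.5% held a match. The windows of Kit, Flt3, Gata2 and Meis1 held none, and 6 of the 7 genes had a window in the table.

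Csf2rb did not change detectably in any exposure. Its brightest probe ran from 5.23 through 6.25 to 7.12 in controls and had medians between 5.86 and 6.16 in the 5 exposed groups. The changes against controls lay between -0.32 and -0.10, and the widest 95% interval, in the 15% field, was -0.97 to 0.75. A second probe of the same transcript, from base 2837 where the first starts at base 4501, gave changes between -0.32 and -0.07. The estimates at both probes were thus small, while the intervals leave room for larger changes.

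Cd34 gave different answers at its 2 probes. Whether one of them also binds another transcript, or reads another isoform, was not tested, so each Cd34 value holds for its own probe. On the brightest probe, which starts at base 2370, the controls ran from 0.5 through 0.78 to 1.63 and the 25% arrays from 1.90 through 2.62 to 3.10, with no overlap (12.2% of all genes upward). The change was 1.60 (SE 0.27, adjusted p = 0.000356), a 3.04-fold increase. The 5% arrays (1.17, median 2.68, 3.30) and the 15% arrays (1.21, median 2.08, 4.31) changed by 1.44 (adjusted p = 0.00732) and 1.59 (adjusted p = 0.0158) in limma, short of the unadjusted threshold. X-rays (0.58, median 1.56, 2.97) and neutrons (0.44, median 1.11, 1.70) changed the probe by 0.62 and 0.10, neither called.

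The second Cd34 probe ranked the exposures differently. The controls ran from -0.84 through 0.00 to 0.21, the x-ray arrays from 1.00 through 1.63 to 1.99 and the neutron arrays from 1.11 through 1.29 to 1.54, so that both exposures lay wholly above the controls, as did 12.7% and 12.8% of all probes. With every probe tested on its own, x-rays raised it by 1.72 (SE 0.25, adjusted p = 0.000135) and neutrons by 1.51 (SE 0.19, adjusted p = 2.49e-05), where 27.6% and 33.6% of all probes were called. In the mixed fields, where 21.3, 26.5 and 23% of probes were called, it changed by 0.67, 0.82 and 0.20, none of them called, with arrays from -2.04 to 1.74, -0.54 to 1.52 and -1.67 to 1.83. Since only 1 control array was well above background at this probe, its control level is poorly measured and its folds are uncertain.

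The difference between the 2 probes on each array is given as a description, with no test, since it was chosen after the values were seen. That difference averaged 1.18 ± 0.72 (SD, n = 6) in controls, 0.08 ± 0.76 after x-rays, 1.96 ± 1.77, 1.96 ± 1.40 and 2.59 ± 1.23 in the 5%, 15% and 25% fields, and -0.22 ± 0.67 after neutrons. Against controls it changed by -1.41 after neutrons and by -1.11 after x-rays, and neutrons and the 25% field differed by -2.81. The same difference for the 2 Csf2rb probes moved by at most 0.12. Averaging the Cd34 probes turned its calls around: it was then called after x-rays and neutrons and not in the 25% field.

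**Figure D2:**
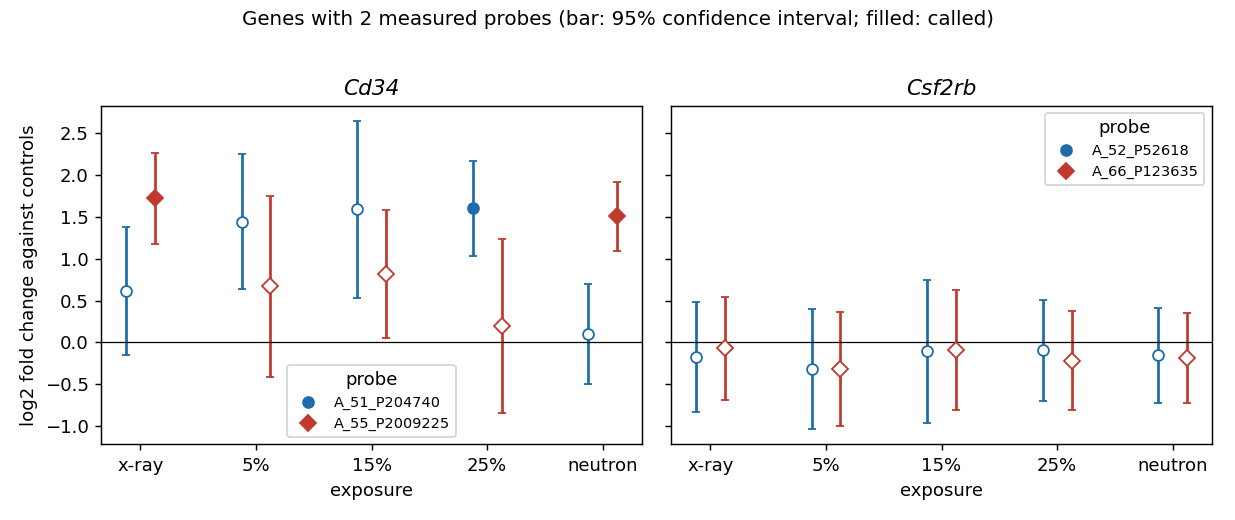
Log2 fold change against controls (y axis) of the 2 probes of Cd34 and of Csf2rb for each exposure, with 95% confidence intervals and filled symbols where the probe was called. The Cd34 probes part after x-rays (0.62 and 1.72) and neutrons (0.10 and 1.51) and in the 25% field (1.60 and 0.20), while the Csf2rb probes stay together.

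Endothelium, which carries CD34, was represented by 9 genes on the array, of which 3 were well above background on at least 18 arrays and Emcn on none. The list's summed level ran from 8.34 to 8.63 in controls, from 7.37 to 8.99 in the 25% field and from 8.61 to 10.13 after x-rays, a sum led by Kdr, the endothelial receptor for VEGF. The 3 genes tested were Kdr, Esam and Tie1, while Pecam1, well above background on all 36 arrays, was not tested. Tie1, an endothelial receptor gene, was called upward in the 15% and 25% fields. None of the 3 was called after x-rays, in the 5% field or after neutrons. Kdr and Esam moved the other way from Tie1 in the 15% and 25% fields without being called. Kdr changed by -0.83 and -0.70 in the 15% and 25% fields, and Esam by -0.77 and -0.63. Tie1 was well above background on no control or neutron array, 1 x-ray array and 5, 5 and 6 arrays of the 5%, 15% and 25% fields. It was at least 3.14-fold higher in the 15% field (adjusted p = 0.000514 in limma) and at least 4.04-fold higher in the 25% field (adjusted p = 3.89e-05) than in controls, and at least 2.25-fold lower after neutrons than in the 25% field (adjusted p = 5.96e-05). In these bounds the dim group is set at the lowest signal that was well above background on each array, or at the probe's own value where higher. The brightest Cd34 probe was likewise called upward in the 25% field and lower after neutrons than in that field. Of 6 heart muscle genes, checked because blood was drawn from the heart, 1 was well above background on at least 18 arrays and Myl7 on none. Their summed level ran from 1.03 to 2.83 in controls, from 1.99 to 5.79 after x-rays, from 2.15 to 8.17 in the 25% field and from 2.89 to 4.60 after neutrons, where every array lay above the controls. The 8.17 came from 25% replicate 6, and the next array of that field was at 4.14. Myl3, a myosin light chain of heart and slow muscle and the 1 heart gene tested, rose by 2.05 after neutrons (adjusted p = 0.00107 in limma) and was not called in the other exposures. The part of either tissue in the Cd34 values was not tested.

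Gata2 was not called in any comparison with controls, and its spread differed between groups. The controls lay close together, from 3.40 through 3.77 to 4.08 (SD 0.24). The 5% arrays ran from 2.32 through 3.99 to 4.69 (SD 1.00) and the 15% arrays from 2.52 through 4.40 to 5.21 (SD 0.98). In each of these fields some arrays lay above every control, 3 and 4 of 6, and others below, 2 and 1 of 6, and the changes were -0.01 (95% interval -0.85 to 0.82) and 0.36 (-0.46 to 1.19). The lowest arrays, 5% replicates 3 and 5 and 15% replicate 3, were also those with the highest array medians of their groups (4.64, 4.84 and 5.28), and their part in the Gata2 values was not tested. X-rays moved Gata2 by -0.55 (2.36, median 3.16, 3.78, adjusted p = 0.0683 in limma). Neutrons moved it by 0.48 (3.69, median 4.2, 5.28, adjusted p = 0.104 in limma) and the 25% field by 0.00 (95% interval -0.46 to 0.46).

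Meis1 was likewise not called. It ran from 1.43 through 1.75 to 2.08 in controls and from 0.03 through 1.03 to 2.02 after x-rays, where 5 of 6 arrays lay below every control. The x-ray change of -0.76 (SE 0.28, 95% interval -1.37 to -0.14) had an adjusted p = 0.0352 in limma and met only the adjusted threshold. Within session 1 it was -0.70 and within session 4 -1.03. The other exposures moved Meis1 by -0.13, 0.23, -0.12 and 0.08 for the 5%, 15% and 25% fields and neutrons, all with arrays on both sides of the control range. Both factors were thus lowest by mean after x-rays.

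**Figure D3:**
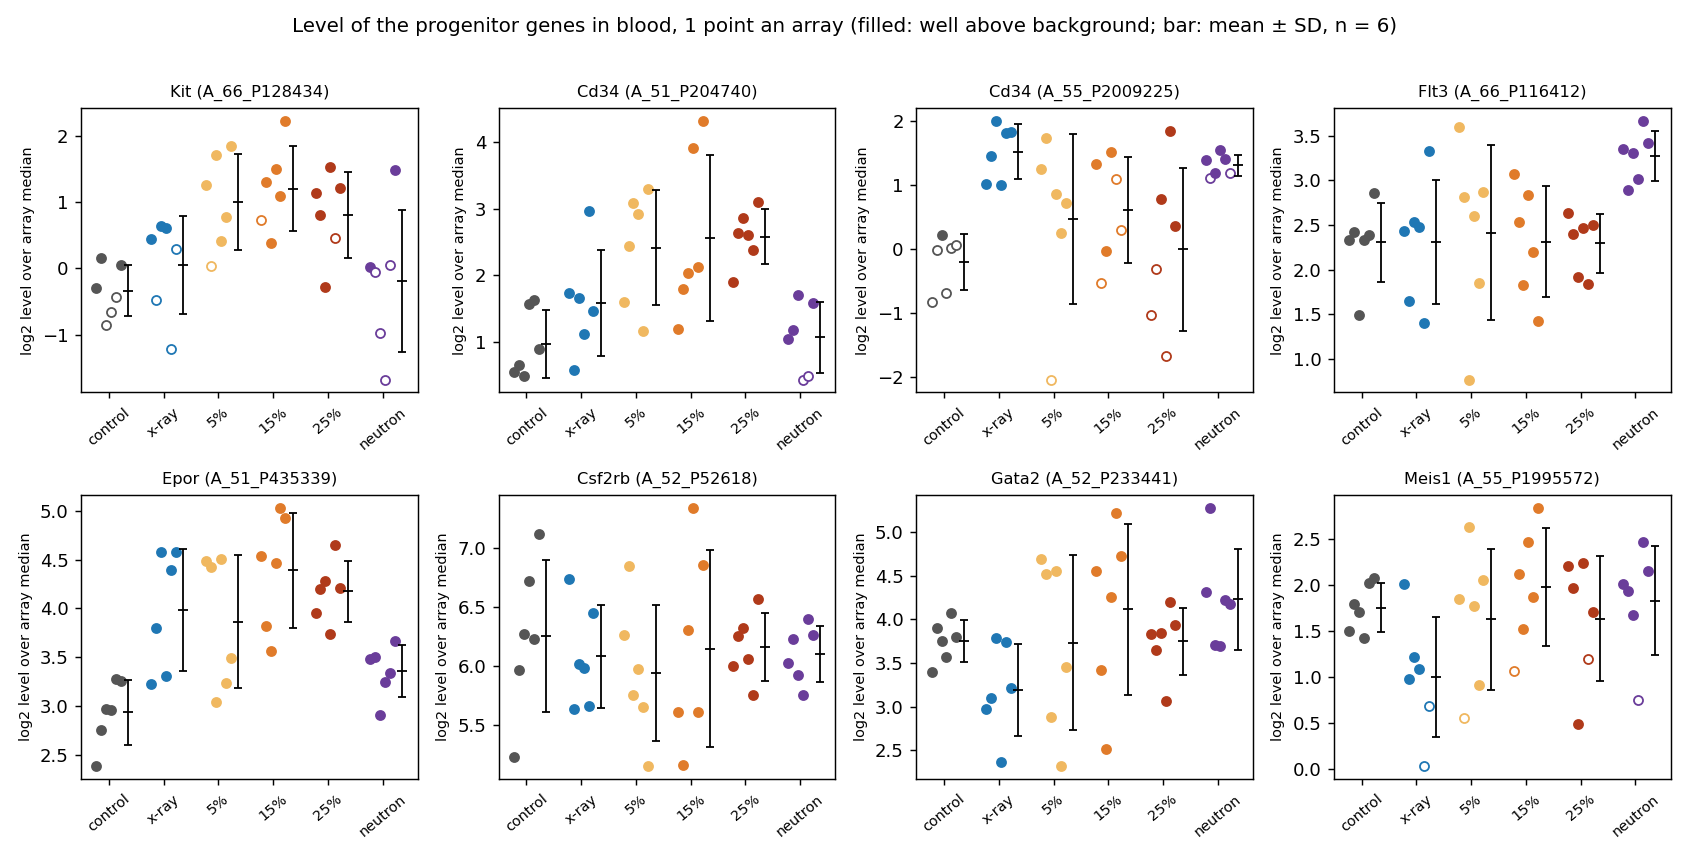
Log2 level over the array median (y axis) of each array in the 6 groups (x axis) for the 8 measured probes named in the text, filled where the spot was well above background, with mean ± SD (n = 6). By mean, Kit and the first Cd34 probe are higher in every mixed field than in the other groups. Epor is highest in the 15% field, but it is higher after x-rays (3.98) than in the 5% field (3.86). The second Cd34 probe is high after x-rays and neutrons, and Gata2 spreads widely in the 5% and 15% fields.

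Comparisons between exposures asked whether the neutron share changed the response. None of the 7 genes was called between x-rays and the 5%, 15% or 25% field or neutrons alone, where 0, 4.09, 2.61 and 12.9% of all genes were. The counts at an unadjusted p below 0.05 in limma were 1, 2, 1 and 4 of 7. The share of all genes at this threshold is not given here, so these counts are not read as a result about the 7 genes. Against x-rays, Kit in the 15% field differed by 1.15 (95% interval 0.32 to 1.99), Gata2 after neutrons by 1.04 (0.37 to 1.70, adjusted p = 0.0236 in limma) and Flt3 after neutrons by 0.97 (0.33 to 1.61, adjusted p = 0.0272 in limma). These intervals leave out 0 and the changes still missed the unadjusted threshold of 0.001. In session 4, the only one shared by the 15% field and x-rays, with 1 array of each, Kit differed by 0.08. Neutrons and x-rays shared no session.

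Neutrons alone and the 25% field carried the same neutron dose, with and without x-rays, and all 12 arrays were scanned in session 3. Here 2 of the 7 genes were called, beside 11.4% of all genes. Cd34 on its brightest probe was lower after neutrons alone (log2 fold change -1.5, SE 0.27, adjusted p = 0.00154) and Flt3 was 0.98 higher (SE 0.21, adjusted p = 0.00433), with no overlap in either (9.23% of genes downward and 3.54% upward). Epor was lower on all 6 neutron arrays too, with a change of -0.82 (SE 0.20, adjusted p = 0.0105 in limma) that missed the unadjusted threshold, and it was called with every probe tested on its own (adjusted p = 0.0084). Kit differed by -1.0 (95% interval -1.98 to -0.02). On the slide that held 2 arrays of each group Cd34 differed by -1.63, Flt3 by 0.95 and Epor by -0.94, close to the full values, but with slide as a block neither gene was called (adjusted p = 0.118 and 0.231 in limma). With the 2 Cd34 probes averaged, Cd34 changed by -0.10 and was not called. Leaving out 1 array, Cd34 was called in 12 of 12 fits and Flt3 in 7 of 12, being lost without 25% replicate 3 or without neutron 1, 3, 5 or 6.

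Genes around these receptors and factors were followed in lists that hold no member. Of 23 further progenitor surface receptors 17 were tested, and 4, 3, 4, 3 and 3 were called downward after x-rays, 5%, 15%, 25% and neutrons, with 0, 0, 0, 1 and 1 upward. The median change of the 17 was -0.44, -0.38, -0.49, -0.40 and -0.21, below the medians of all genes given above. In all 23.5, 17.6, 23.5, 23.5 and 23.5% of the 17 were called, each below the share of all genes. Il5ra, the interleukin 5 receptor that pairs with Csf2rb and is also carried by some B cells and eosinophils, fell in every exposure, by 2.87 after x-rays and by 0.98 after neutrons, and differed between these (1.89, adjusted p = 0.00618). Il7r, the interleukin 7 receptor of lymphoid cells, was lower in the 3 mixed fields and after x-rays (log2 changes -1.70, -1.82, -1.07 and -1.44), and its neutron change of -0.91 was not called. Cd93, a receptor of early progenitors and monocytes, rose in the 25% field (1.10, adjusted p = 0.000471) and was lower after neutrons than in that field (-1.21, adjusted p = 0.000381), the same contrast as Cd34's brightest probe. Csf1r, the macrophage growth factor receptor, was called after neutrons alone (0.82, adjusted p = 0.00109). The B cell list is given beside the lymphoid receptors: 7, 7, 7, 7 and 6 of its 7 genes were called downward. Few of the ligands could be followed, since 4 of 12 passed the filters and neither stem cell factor (Kitl), Flt3l nor Epo was among them. Kitl was well above background on 0 and Epo on 7 of 36 arrays. Flt3l was well above background on all 36 and was left out by the fold filter, so it was measured but not tested. None of the 4 was called against controls. Cxcl12, the chemokine that holds progenitors in the marrow, was called lower after neutrons than in the 25% field (log2 change -4.58, adjusted p = 0.000789 in limma), where it was well above background on 1 and 6 of 6 arrays. Against controls, which spread with an SD of 2.82, it changed by 3.86 in the 5% field (adjusted p = 0.0447 in limma) and 3.94 in the 25% field (adjusted p = 0.0156), short of the unadjusted threshold.

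**Figure D4:**
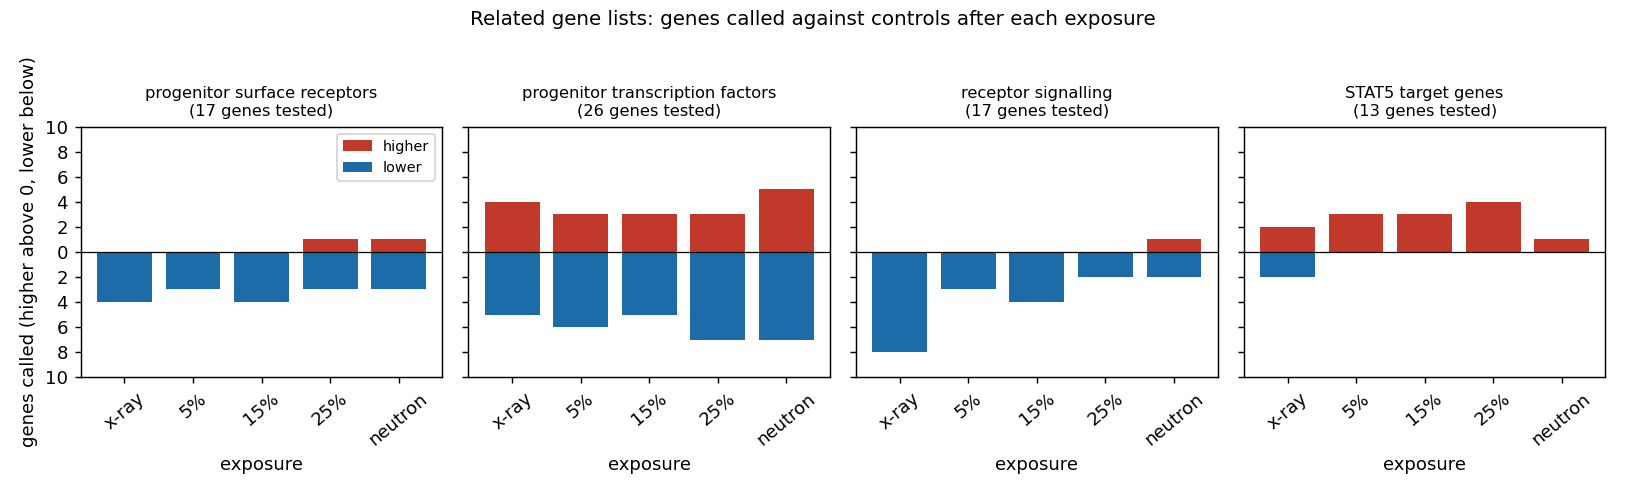
Number of genes called against controls (y axis, upward above 0 and downward below) in 4 lists of related genes for the 5 exposures. Surface receptors and receptor signalling genes were called mostly downward and STAT5 targets upward except for 2 downward after x-rays, while the factors went both ways. The share called, 23.1 to 36.6% of all genes, was 17.6 to 23.5% of the surface receptors and 7.69 to 30.8% of the STAT5 targets.

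Among 26 tested factors of progenitors and their lineages, 4, 3, 3, 3 and 5 were called upward and 5, 6, 5, 7 and 7 downward, with median changes of -0.11, -0.44, -0.28, -0.33 and -0.02. The share called was 34.6, 34.6, 30.8, 38.5 and 46.2%, above that of all genes in each exposure. Klf1, the factor of red cell maturation, rose in every exposure, by 2.73 after x-rays and 1.59 after neutrons, and was lower after neutrons than after x-rays (-1.15, adjusted p = 0.00664). Zfpm1, which encodes the GATA partner FOG-1, rose by 2.73 after x-rays and 0.90 after neutrons and differed between them (-1.83, adjusted p = 7.49e-05). Sox4 and Fli1, which act in lymphoid and in megakaryocyte and endothelial cells, fell in every exposure, by 1.22 to 2.44 and by 1.09 to 1.87. Beside these, the largest change of Gata2 or Meis1 against controls was the -0.76 of Meis1 after x-rays.

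Receptor signalling genes were called upward in 0, 0, 0, 0 and 1 and downward in 8, 3, 4, 2 and 2 of 17 cases, with median changes of -0.92, -0.87, -0.67, -0.62 and -0.35. The share called was 47.1% after x-rays, above the 29.8% of all genes, and 11.8 to 23.5% in the other exposures, below the shares of all genes there. Ptpn6, the phosphatase SHP-1 that turns off Epor and Kit, fell by 1.23 to 2.20 in every exposure, and Cblb, a ubiquitin ligase of receptors, fell by 0.74 to 1.59. Jak1 was called upward after neutrons alone (1.13, adjusted p = 0.000287). Of 13 tested STAT5 targets 2, 3, 3, 4 and 1 were called upward, and 2, 0, 0, 0 and 0 downward, with median changes of 0.04, 0.14, 0.30, 0.14 and -0.09. These counts, 30.8, 23.1, 23.1, 30.8 and 7.69% of the 13, stood beside 29.8, 23.1, 29.1, 24.8 and 36.6% of all genes. Bcl2l1, the survival factor of red cell precursors, rose in all 5 exposures, by 1.88 after x-rays, 2.86 in the 15% field and 2.42 after neutrons. Cish, a feedback inhibitor of cytokine receptors, rose by 1.31, 1.90, 1.47 and 2.01 after x-rays and in the 5%, 15% and 25% fields and was not called after neutrons (-0.21, adjusted p = 0.484). It was lower after neutrons than after x-rays (-1.53, adjusted p = 0.00326) or in the 25% field (-2.23, adjusted p = 0.000167). The 2 STAT5 targets called downward after x-rays were Mcl1 (-1.26) and Bcl6 (-1.02).

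The genes whose levels ran most like each progenitor gene over the 36 arrays, among 7978 others well above background on every array, are given as a description, since arrays of 1 group share their exposure. Epor ran with Samd14 (Pearson r = 0.94), with Itgb3, the platelet integrin beta 3 chain (0.94), and with Spa17 (0.93). Gata2 ran with Pls1 (0.93), with Adgrg1, the adhesion receptor GPR56 (0.93), and with Pdgfa (0.92). Csf2rb ran with Pira11, 4632428N05Rik and Pirb (0.92, 0.90 and 0.90), the first and last of them paired immunoglobulin-like receptors of myeloid cells. Meis1 ran with Wars, Ap1g1 and Atp5g2 (0.89, 0.89 and 0.88). For Kit (Mrpl37, Lamp1 and Tmed10), Flt3 (Dna2, Adrbk2 and Cx3cr1) and Cd34 (Wfdc17, Lgals3bp and Hacd1) the closest r were lower, 0.84, 0.81 and 0.80.

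Arrays differed in brightness as well as in exposure. The array median ran from 4.33 to 4.70 in controls and from 2.77 to 5.30 over all arrays, and probes well above background numbered from 15569 to 21294. Arrays were scanned in 4 sessions. The 25% and neutron groups were all in session 3 and shared none with controls or x-rays, so that session and exposure cannot be told apart in comparisons of those groups with controls or x-rays. The 5% and 15% fields each had 5 arrays in session 2, while controls and x-rays each had 5 in session 1. Only session 4 was shared by these 4 groups, with 1 array of each. Session and exposure thus largely coincide in comparisons of the 5% and 15% fields with controls or x-rays too.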

How the data were processed

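RNA from whole blood of 36 mice was measured on single-colour Agilent arrays, read per the labels with Agilent Feature Extraction 12.0.2. The deposited scanner files hold the authors' processed intensity per spot, background subtracted, and were used as the main values. The deposited series table holds the authors' normalized log2 values for 14216 genes and served as an alternative. The study's methods state log2 transformation and median normalization. Depth is not defined for arrays, and the number of arrays limits the precision. Processed intensities were log2 transformed and centred on each array's median over 39429 probes. A probe was kept (21484 probes) if over 75% of the arrays had it free of the non-uniformity flag and above background by the scanner software's test, and if at least 20% of them lay 1.5-fold or more from its median (17960 left). The brightest probe stood for a gene (15083 genes). Each of 10 comparisons was fitted with limma 3.58.1 in R 4.3.3 on its own 12 arrays, in place of the study's random variance test, with Benjamini-Hochberg adjustment over all genes. A gene was called at p below 0.001 and adjusted p below 0.05. Slides and scan sessions (arrays scanned on the same day) were numbered from the file headers. Intervals are 95%. The fit was tested on simulated data.

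The members and lists were chosen with earlier results of these data known. Named genes were every probe of the 7 members, per related list up to 2 genes in each direction called in the most exposures, per cell type list the 2 brightest in controls and those that a count of 5 or fewer singled out, and the 3 genes most like each member. Alternatives covered scaling, background correction, filters, probe choice, blocks for replicate number, slide and session, 1 model over all arrays, the call rule, the deposited table and leaving out arrays. Leaving out session 4 was chosen after seeing the data. Probe coordinates are mm9 and upstream windows GRCm38.p6, and the builds were not mixed.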

Additional observations from a re-analysis of the deposited data

Results flagged for a closer look

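Among 66 groups of 6 arrays (11 probes in 6 groups) an array stood apart from the other 5 by Dixon's ratio in 5, where chance alone gives about 1 in 20. Of these, 4 were at the 2 Flt3 probes near background. At A_55_P2055242 they were control replicate 3 at -0.87 (next array -2.17) and neutron replicate 1 at -0.52 (next -1.27). At A_66_P126155 they were control replicate 1 at 0.72 (next -2.20) and neutron replicate 1 at -2.20 (next -1.62). The other was neutron replicate 4 of the second Csf2rb probe, at 2.59 with the next array at 3.05.

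Between neutrons alone and the 25% field the direct test differed for Cd34 on its brightest probe (log2 fold change -1.5) and for Flt3 (0.98). The second Cd34 probe pointed the other way there, with a change of 1.31 (adjusted p = 0.058 in limma) that missed the threshold.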

How the results depend on the processing

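Scaling arrays on their 75th percentile, or on the median of the probes that cleared background everywhere, called 1 of the 7 genes after x-rays (Epor) and 2 in the 5% field (Kit and Cd34), where the reported fit called 0, and 3 in the 25% field (Kit besides Cd34 and Epor). The 75th percentile also called 2 after neutrons (Flt3 and Epor), and quantile normalization called Epor after x-rays. The 75th percentile moved the median change of all genes after x-rays from -0.11 to 0.44, and the share of calls that were upward from 43.3% to 62.6% after x-rays, from 43.2% to 53.7% in the 15% field and from 44% to 62.2% after neutrons. With normexp background correction 3 of the 7 genes passed the filters and 0 were called in the 15% and 25% fields, after neutrons and between neutrons and the 25% field, and Epor in the 5% field turned to -0.14 (adjusted p = 0.81), the only reversal of a change with adjusted p below 0.05. The averaged probes called Cd34 after x-rays (1), Cd34 and Flt3 after neutrons (2), Epor in the 25% field (1) and Flt3 between neutrons and that field (1). Testing every probe called 1, 1 and 2 after x-rays, 5% and neutrons and 3 between neutrons and the 25% field (Cd34, Flt3 and Epor). Without the fold filter Kit was called in the 5% field (1). Requiring all arrays well above background called Cd34 in the 5% field (1) and left Epor in the 15% field (1). The adjusted p alone called 2 after x-rays, 3 in the 5% field and 2 between neutrons and x-rays. The deposited table kept 1 in the 15% field (Epor) and 1 between neutrons and the 25% field (Cd34).

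Slide and session blocks called 0 in the 15% field, a random slide block 0 after neutrons, and a slide block 0 between neutrons and the 25% field. A random session block called 2 between the 25% field and x-rays and 2 between neutrons and x-rays, where session and exposure cannot be told apart. The model over all 36 arrays called 0 after neutrons and 0 between neutrons and the 25% field. Leaving out session 4 called 1 in the 5% field (Cd34) and 1 between neutrons and x-rays (Flt3). Replicate numbers did not pair the arrays (mean r of residuals 0.037 over 90 same-number pairs, -0.0062 over 450 others), and the replicate block called 0 after neutrons and 1 between neutrons and the 25% field (Cd34). Leaving out 1 array gave 0 to 1 after x-rays (Epor without x-ray 1), 0 to 1 in the 5% field (Cd34 without 1 or 5, Kit without 2 or 4), 2 in the 15% field, 2 to 3 in the 25% field, 0 to 1 after neutrons, 0 to 1 between neutrons and x-rays (Flt3 without x-ray 6) and 1 to 3 between neutrons and the 25% field. Over all settings, 1798 single-gene values stayed as they were, called or uncalled, 44 gained a call, 30 lost it and 1 reversed, and 152 changed sign between uncalled values. Of the called results, Kit and Epor in the 15% field stayed called in 23 of 26 and 25 of 28 alternatives. In the 25% field Cd34 and Epor did so in 26 of 27 and 27 of 28, and Flt3 after neutrons in 17 of 27. Of each set of alternatives, 12 were fits that left out 1 array. The Cd34 counts do not take in its second probe on its own, which changed by 0.20 in the 25% field and was not called. No alternative could part session from exposure in the 25% and neutron comparisons with controls. Between neutrons and the 25% field Cd34 stayed called in 21 of 24 and Flt3 in 16 of 25. The causes of these changes were not tested.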
